A study of Mus musculus with 48 samples.

Results

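The tumours described here are the unirradiated allograft sarcomas of the series: 4 from mice given an antibody against PD-1 and 4 from mice given an isotype control antibody, compared across all 17746 genes with enough counts to test. These 8 tumours, of 48 in the whole series, were chosen from the tumour kind, dose and antibody that the labels give for each sample, and no measured value was used. The series profiled mRNA in bulk from 16 allografts and 32 primary sarcomas, each kind divided by dose (0 or 20 Gy to the hind limb) and by antibody. Each allograft was started with 50000 cells of 1 sarcoma line, 402230, placed in Matrigel in the gastrocnemius, a calf muscle, of a syngeneic host, and the strain background is 129/SvJae. The line belongs to the p53/MCA model, in which Cre recombinase deletes floxed p53 alleles in muscle and the carcinogen MCA is given afterwards. Once a tumour measured about 150 mm3 the mouse received 200 ug of muDX400, a murine anti-PD-1 antibody, or of the control antibody by the intraperitoneal route. Both groups had 0 Gy, and tumours were taken 3 days after treatment. All 8 tumours come from the same cell line, so the spread within a group is a spread between grafts and hosts of 1 line and not between independent sarcomas. The ages of the allograft hosts are not given in the sources used here.

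PD-1 is an inhibitory receptor on activated T cells. Its ligand PD-L1 (Cd274) is carried by tumour and myeloid cells, and interferon gamma from T cells and natural killer cells raises it together with guanylate-binding proteins, immunity-related GTPases, antigen presentation genes and the chemokines Cxcl9, Cxcl10 and Cxcl11. Blocking PD-1 is known for releasing T cells that have already recognised the tumour, and an early sign of that in a tumour is a set of interferon gamma-induced transcripts.

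The 8 libraries held 39.6 to 54 M (mega) counts each, so the spread between tumours outweighs counting error except for genes near or below 1 CPM (CPM, counts per 1e6 counts after scaling). Mitochondrial genes took 1.09 to 2.03% of counts in the isotype tumours and 0.952 to 1.5% in the anti-PD-1 tumours. The 18 skeletal muscle genes took 0.0108 to 2.46% and 0.29 to 1.85% of counts. Xist was at 86.9 CPM in isotype tumour 2 and 75.8 CPM in anti-PD-1 tumour 2, and at 0.404 CPM or less in the other 6 tumours, while the Y-linked gene Ddx3y was at 32.6 to 68 CPM in all 8. Anti-PD-1 tumour 2 was also the only one of the 8 whose title carries an identifier starting with 4. The identifiers of the others start with 5, so a covariate for that digit marks only this tumour within the comparison. Trp53 was at 26 to 38.5 CPM in the isotype tumours and 25.3 to 46.3 CPM in the anti-PD-1 tumours. Of 11 keratinocyte genes, 8 had too few counts to test, and the 25 extracellular matrix genes summed to 15952 CPM or more in each of the 8 tumours. Counts of no pair of tumours agreed within sampling noise: the chi-square per degree of freedom was 110 or more in the 12 pairs within a group.

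With anti-PD-1, the transcripts of T cells, of regulatory T cells, of the interferon gamma response and of T cell-recruiting chemokines had higher means than with the isotype control, by 1.54 to 2.09 times at the list medians, while genes of the cell cycle, p53 targets and cholesterol synthesis had medians near 0. Medians as high were found for erythroid (2.15 times), neutrophil (1.97), B cell (1.79) and mast cell and eosinophil genes (1.72), and all of these except the B cell list were near or below 0 on the log2 scale without anti-PD-1 tumour 3. No single gene passed the test. Of the 17746 genes tested, 0 (0%) had an adjusted p below 0.05 in edgeR's quasi-likelihood test, where the smallest adjusted p was 1, and DESeq2 and limma also called 0. At an unadjusted p below 0.05 there were 299 genes (1.68%), 226 of them higher with anti-PD-1 (1.27%) and 73 lower (0.411%). The log2 fold change was above 0 in 8704 genes (49%), with a median of -0.0047 and quartiles of -0.16 and 0.13. A value above 0.5 was reached by 1269 genes (7.15%) and one below -0.5 by 816 (4.6%). The 4 anti-PD-1 tumours all lay above the 4 isotype tumours in 48 genes (0.27%) and all below in 66 (0.372%). These shares are the background against which each gene list is read below, and every log2 fold change is anti-PD-1 minus isotype. In bulk RNA, fewer cells of a type and less RNA per cell cannot be told apart.

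T cell identity genes were higher on average with anti-PD-1 in 21 of 22 members (95.5%, against 49% of all genes), with a median log2 fold change of 0.88, or 1.85 times, against -0.0047 for all genes. Cd3e, a subunit of the T cell receptor complex, was at 10.6, 16.4, 18.8 and 5.95 CPM in isotype tumours 1 to 4. It was at 26.5, 14.7, 38.9 and 18.9 CPM in anti-PD-1 tumours 1 to 4. Anti-PD-1 tumour 2 fell among the isotype tumours and the other 3 stood above them, tumour 4 by a narrow margin. The log2 fold change of Cd3e was 0.94 (SE 0.42). Cd8a, the coreceptor of cytotoxic T cells, was at 16.8, 20.7, 24.8 and 10.2 CPM with isotype and at 35.3, 18.2, 54.7 and 26.3 CPM with anti-PD-1, a log2 fold change of 0.89 (SE 0.40). Its pattern over the tumours was that of Cd3e, with anti-PD-1 tumour 2 low and isotype tumour 4 lowest. Trbc1, a constant segment of the T cell receptor beta chain with a near-identical paralog, had the smallest p of the list, with 3.88 ± 1.24 CPM (SD, n = 4) against 8.34 ± 3.31 CPM and a log2 fold change of 1.10. Cd4, the coreceptor of helper and regulatory T cells, was at 4.04 to 11.8 CPM with isotype and 5.06 to 26.8 CPM with anti-PD-1 (0.81, SE 0.54). The log2 fold change of Cd4 was 0.31 and that of Cd8a 0.55 without anti-PD-1 tumour 3. Of the 22 genes, 11 had an unadjusted p below 0.05 and all 11 were on the higher side, where 1.27% of all genes were, but in 0 of the 22 did the groups stand fully apart. In other fits it was 16 in limma with sample quality weights, 5 in the fit of the 8 tumours alone, 4 with a covariate for Xist and 0 in the fit of all 48 tumours. It also rested on single tumours: it was 0 without anti-PD-1 tumour 3, 1 without anti-PD-1 tumour 1, isotype tumour 1 or isotype tumour 4, and 14 without isotype tumour 3. The list median moved less, from 0.55 (without anti-PD-1 tumour 3) to 1.08 (without anti-PD-1 tumour 2).

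Cytotoxic effector genes were higher in 16 of 19 members with a median of 0.67, and natural killer cell receptors in 9 of the 11 that could be tested, of 13 listed, with a median of 0.71. Gzmb, the granzyme that cytotoxic cells deliver into targets, was at 31, 50, 79.2 and 15.3 CPM with isotype and at 136.1, 37.4, 134.97 and 72.2 CPM with anti-PD-1. Anti-PD-1 tumours 1 and 3 stood well above the rest, tumour 4 lay just under the highest isotype tumour and tumour 2 within the isotype range. Its log2 fold change was 1.12 (SE 0.47). Ifng, the gene of interferon gamma itself, was at 1.16, 0.834, 2.1 and 0.271 CPM with isotype and at 3.29, 1.01, 3.89 and 2.62 CPM with anti-PD-1. Again 3 anti-PD-1 tumours exceeded every isotype tumour and tumour 2 did not, and the log2 fold change was 1.30 (SE 0.55). Prf1, which encodes the pore-forming perforin, was nearer between the groups, at 3.82 to 30.4 CPM with isotype and 17.9 to 35.2 CPM with anti-PD-1 (0.45, SE 0.47), and its value ran from 0.13 without isotype tumour 4 to 0.79 without isotype tumour 3. At an unadjusted p below 0.05 the cytotoxic list had 6 members on the higher side, with Serpinb9, Cst7 and Gzmb in front, and the natural killer list had 2, Klrb1c and Cd226. In other fits the cytotoxic count was 0 with all 48 tumours, 2 with the 8 tumours alone and 10 in DESeq2, limma or without the filter on low counts. It was 0 without isotype tumour 1, isotype tumour 4 or anti-PD-1 tumour 3 and 1 without anti-PD-1 tumour 1. It was 9 without isotype tumour 2, isotype tumour 3 or anti-PD-1 tumour 2 and 10 without anti-PD-1 tumour 4. The cytotoxic median ranged from 0.52 without isotype tumour 4 to 0.997 without isotype tumour 2. The natural killer count was 1 without isotype tumour 1, isotype tumour 4, anti-PD-1 tumour 1 or anti-PD-1 tumour 2, 5 and 6 without isotype tumour 2 and anti-PD-1 tumour 4, 0 in the fit of all 48 tumours and 4 in limma.

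Inhibitory receptors of T cells were higher in 10 of 12 members (median 0.77). Pdcd1, the gene of the receptor that the antibody binds, was at 8.98, 20.1, 14.3 and 5.63 CPM with isotype and at 26.5, 13.8, 34.1 and 17.4 CPM with anti-PD-1, a log2 fold change of 0.91 (SE 0.39). The groups overlapped, since isotype tumour 2 stood above anti-PD-1 tumours 2 and 4 and isotype tumour 3 above anti-PD-1 tumour 2. Tigit and Ctla4, inhibitory receptors for other ligands, had log2 fold changes of 0.96 (SE 0.38) and 0.94 (SE 0.39). Without anti-PD-1 tumour 3 the median of the list came to 0.38. Among 10 tested genes of checkpoint ligands, 9 had a value above 0, but the median was 0.30, and the 3 genes with an unadjusted p below 0.05 were Pdcd1lg2 (PD-L2), Ido1, which breaks down tryptophan, and Cd274. Cd274 was at 22.8, 26, 44.8 and 11.9 CPM with isotype and at 75, 21, 83 and 44.1 CPM with anti-PD-1. Tumours 1 and 3 of the anti-PD-1 group held the highest values, tumour 4 was just under the highest isotype tumour, and tumour 2 was below 3 of the 4 isotype tumours. The log2 fold change was 1.08 (SE 0.40) for Cd274, 1.58 (SE 0.56) for Pdcd1lg2 and 1.32 (SE 0.60) for Ido1. Without anti-PD-1 tumour 3, the value of Pdcd1lg2 was 0.60, the median of the ligand list 0.12 and its count at an unadjusted p below 0.05 was 0. The count was 5 in limma. Without anti-PD-1 tumour 4 that median was 0.53 and the count 5, and without each of the other 6 tumours the count was 2 to 4, with 2 in all but the fit without isotype tumour 3.

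Genes of regulatory T cells and costimulation were higher in 13 of 13 members (median 0.62), and this list held 2 genes whose groups stood fully apart, where 0.27% of all genes did. Foxp3, the transcription factor that defines regulatory T cells, was at 1.12, 1.4, 1.63 and 1.67 CPM in the isotype tumours. It was at 4.26, 3.96, 4.47 and 2.07 CPM in the anti-PD-1 tumours. The isotype tumours lay close together and every anti-PD-1 tumour was above them, including tumour 2, which was low for Cd8a, Gzmb, Ifng and Cd274. Its log2 fold change was 1.34 (SE 0.42), or 2.53 times, with an unadjusted edgeR p of 0.00561. Ccr8, a chemokine receptor of regulatory T cells in tumours, was at 0.523, 0.451, 0.61 and 0.362 CPM with isotype and at 1.21, 1.08, 1.61 and 0.997 CPM with anti-PD-1. Those levels are low, but again no tumour of one group reached the range of the other, and its unadjusted edgeR p of 0.00159 (log2 fold change 1.33, SE 0.35) was the smallest of all 17746 genes. Foxp3 kept log2 fold changes of 1.24 to 1.58 and Ccr8 of 1.17 to 1.46 with each of the 8 tumours left out in turn. Tnfrsf4 (OX40), a costimulatory receptor, followed with 2.84 ± 0.556 CPM against 4.71 ± 1.63 CPM (SD, n = 4 each). Of the 13 genes, 6 had an unadjusted p below 0.05, against 0 in the fit of all 48 tumours and 9 in limma, and 4 to 7 did with 1 tumour left out (4 without isotype tumour 1, anti-PD-1 tumour 1 or anti-PD-1 tumour 3). The list median ranged from 0.42 (without anti-PD-1 tumour 3) to 0.87.

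**Figure D1:**
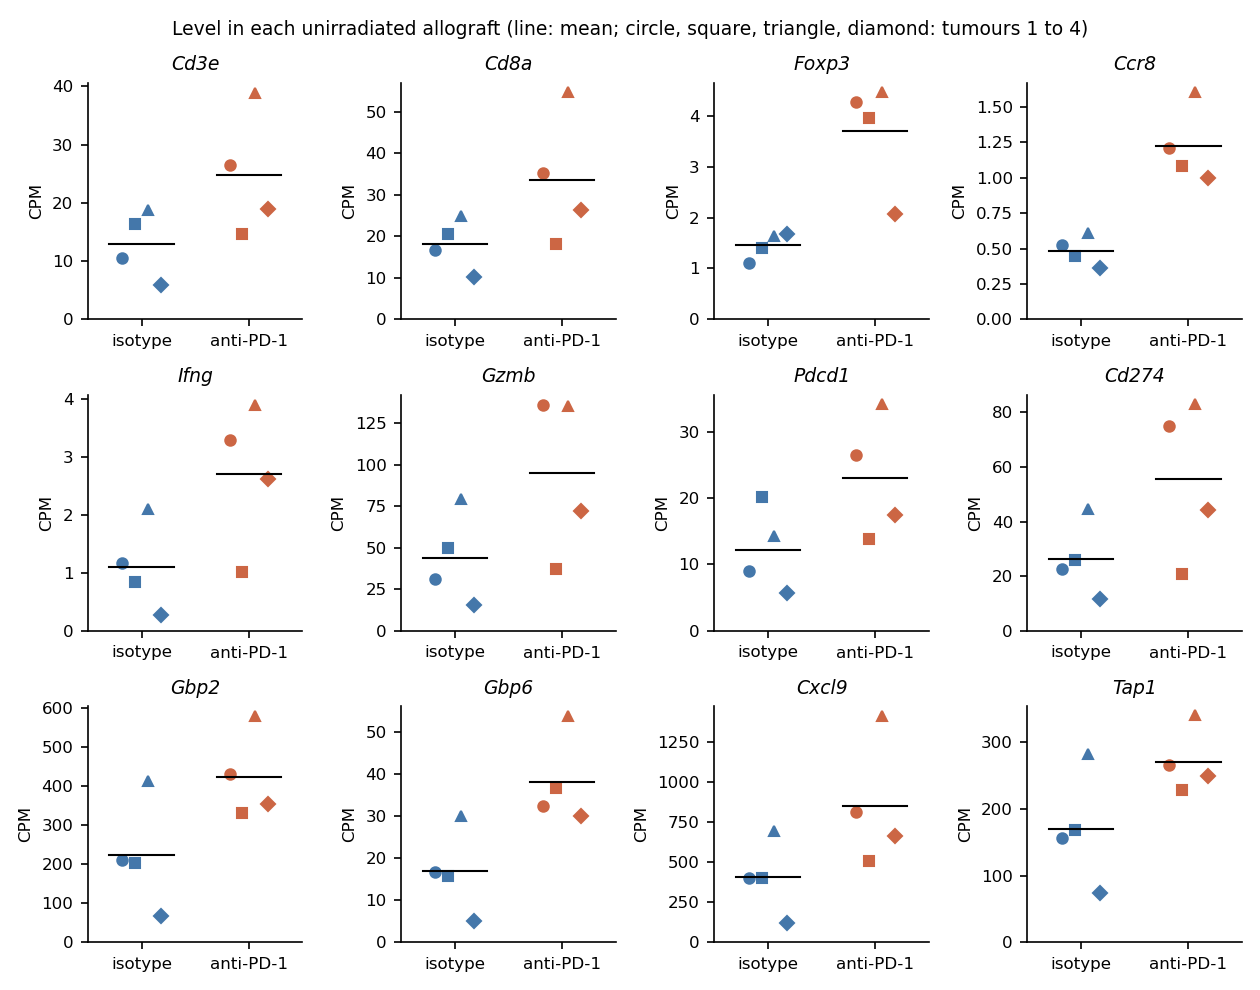
Level in CPM (vertical axes, from 0) of 12 genes in each unirradiated allograft, isotype in blue and anti-PD-1 in orange; each symbol is 1 tumour (circle, square, triangle and diamond for tumours 1 to 4) and the line is the group mean. Foxp3 and Ccr8 have no overlap between the groups, while for Cd8a, Gzmb and Cd274 anti-PD-1 tumour 2 (square) lies within the isotype range, at 18.2, 37.4 and 21 CPM.

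The interferon gamma response list was higher with anti-PD-1 in 23 of 23 genes, with a median of 0.89 (1.86 times) and single values from 0.35 to 1.33. Its summed level was 2171, 2028, 3998 and 959 CPM in the isotype tumours and 4222, 3351, 5598 and 3414 CPM in the anti-PD-1 tumours. Isotype tumour 3 was above anti-PD-1 tumours 2 and 4, and isotype tumour 4 was the lowest by far. That library also had the highest mitochondrial share of counts (2.03%), the highest Rn7sk level (104.2 CPM) and the highest share taken by Gm42418, a gene model that collects ribosomal RNA reads, at 5.21% against 1.12 to 4.73% in the other isotype tumours and 2.25 to 3.98% in the anti-PD-1 tumours. The part of these in its low T cell and interferon values was not tested. Gbp6, a guanylate-binding protein, was at 16.7, 15.9, 30 and 5.18 CPM with isotype and at 32.4, 36.7, 53.8 and 30 CPM with anti-PD-1, a log2 fold change of 1.17 (SE 0.39). Gbp2 of the same family was at 211.2, 204, 414 and 67.8 CPM with isotype and at 431, 331, 580.5 and 354 CPM with anti-PD-1 (0.92, SE 0.44, and 1.40 without isotype tumour 3). For both genes isotype tumour 3 reached the anti-PD-1 range and isotype tumour 4 was the lowest of the 8. Irf8, a transcription factor of myeloid cells induced by interferon gamma, differed by 0.66 (SE 0.23). Guanylate-binding proteins and immunity-related GTPases are families of near-identical genes, so their counts are uncertain where reads match several members. Of the 23 genes, 14 had an unadjusted p below 0.05, where 1.27% of all genes were on that side, and 0 passed adjustment. The count was 8 in the fit of all 48 tumours and 22 in limma. Without anti-PD-1 tumour 3 it was 4, and without isotype tumour 3 it was 21. The median was 0.64 without isotype tumour 4 and 1.40 without isotype tumour 3.

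Interferon gamma signalling acts on the gamma-activated site, searched here as TTCNNNGAA, and Irf1 acts on interferon-stimulated elements, searched as GAAANNGAAA. Both motifs were read on both strands in RefSeq promoter windows of the GRCm38.p6 build that run from 250 bases before to 50 after a gene start. They are separate motifs and may overlap. Of the 23 interferon gamma list genes, 15 matched a window. The first motif was in 10 of these 15 genes and the second in 11, that is in 55.6% and 61.1% of their 18 windows, where 8.3% and 3.44% of all 32851 windows held them. In the type I interferon list the shares were 10.5% and 47.4% of 19 windows. In the MHC class I list they were 5%, below that of all windows, and 25% of 20 windows. The 200 bases before the start of 4 interferon gamma-induced genes are shown because they carry these sites in different arrangements, with the motifs in capitals and positions counted back from the gene start. All 4 genes lie on the plus strand. Irf1, at chr11:53769814-53770013, has the first motif at -90. Irf8, at chr8:120736158-120736357, has it at -171 and -153. Gbp2, at chr3:142620463-142620662, has the second motif at -59, read on the minus strand. Igtp, at chr11:58199356-58199555, has the first at -45 and the second at -34.
Irf1: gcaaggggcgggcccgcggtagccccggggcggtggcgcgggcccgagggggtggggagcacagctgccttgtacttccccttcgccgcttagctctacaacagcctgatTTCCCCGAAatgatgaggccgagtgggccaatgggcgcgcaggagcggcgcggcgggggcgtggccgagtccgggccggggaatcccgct
Irf8: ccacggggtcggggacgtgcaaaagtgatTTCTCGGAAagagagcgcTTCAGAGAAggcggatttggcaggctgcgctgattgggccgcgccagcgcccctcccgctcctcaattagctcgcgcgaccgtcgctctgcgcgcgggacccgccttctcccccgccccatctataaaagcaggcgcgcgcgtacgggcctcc
Gbp2: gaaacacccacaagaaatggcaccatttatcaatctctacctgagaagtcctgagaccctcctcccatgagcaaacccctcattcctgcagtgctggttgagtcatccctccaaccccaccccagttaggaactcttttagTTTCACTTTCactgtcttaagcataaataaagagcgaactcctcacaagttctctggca
Igtp: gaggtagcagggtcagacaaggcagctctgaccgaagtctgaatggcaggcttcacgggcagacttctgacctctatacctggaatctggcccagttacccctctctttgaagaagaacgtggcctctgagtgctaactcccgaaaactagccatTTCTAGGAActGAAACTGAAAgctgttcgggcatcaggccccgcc
In the tumours, Irf1 was at 222, 175, 282 and 125.5 CPM with isotype and at 327, 247, 412 and 299 CPM with anti-PD-1, a log2 fold change of 0.67 (SE 0.27). Igtp, an immunity-related GTPase, was at 111.7, 100.8, 211 and 38.2 CPM with isotype and at 254, 188, 311 and 231 CPM with anti-PD-1, a log2 fold change of 1.09 (SE 0.41). For both, a single tumour of one group reached the range of the other. Irf1 and Igtp were chosen after their values were seen. Neither motif was in the windows of Cd274, Cxcl9 or Tap1, nor in the second windows of Irf1 and Irf8. A motif match describes the letters in the window and is not a measurement of binding.

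Chemokines and receptors that bring in T cells were higher in 15 of 15 genes, with the largest median among the T cell and interferon lists, 1.06 or 2.09 times. Cxcl9, which attracts T cells that carry Cxcr3, was at 404, 401, 697 and 124.1 CPM with isotype and at 812, 508, 1413 and 665 CPM with anti-PD-1. Isotype tumour 3 lay between the anti-PD-1 tumours, and tumours 1 and 3 of the anti-PD-1 group were above all others. Its log2 fold change was 1.06 (SE 0.46). Cxcl11, a second ligand of Cxcr3, differed by 1.28 (SE 0.55), Ccl22, a ligand of the Ccr4 receptor of regulatory T cells, by 1.43 (SE 0.55), and Ccr7, the receptor that guides naive T cells and dendritic cells to lymph nodes, by 1.20 (SE 0.51). Ccr7 was high in anti-PD-1 tumours 1 and 3 (11 and 14.7 CPM) and within the isotype range of 2.16 to 5.34 CPM in tumours 2 and 4. The values were 0.70 for Cxcl9, 0.89 for Ccl22 and 0.71 for Ccr7 without anti-PD-1 tumour 3. Chemokines that attract myeloid cells had a smaller median of 0.35 with 16 of 18 higher, led by Ccl4 (1.15, SE 0.48) and Ccl3 (1.04, SE 0.47, and 1.56 without isotype tumour 3), which activated T cells also make, and the median was 0.22 without anti-PD-1 tumour 1.

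The type I interferon response was higher in 24 of 24 genes, at a median of 0.57 and within a narrow range of 0.26 to 0.84. Ifi44l was at 19.3, 22.5, 36.4 and 13.6 CPM with isotype and at 37.1, 43.8, 57 and 26.2 CPM with anti-PD-1 (0.84, SE 0.27). Here anti-PD-1 tumour 2 was on the high side and tumour 4 was the lowest of its group. The summed list was at 862, 991, 1421 and 763 CPM with isotype and at 1381, 1883, 1791 and 974 CPM with anti-PD-1. Of the 24 genes, 4 had an unadjusted p below 0.05, against 1 in the fit of all 48 tumours, 2 with a covariate for the first digit of the identifier in a tumour's title, 8 in DESeq2 or without the filter and 16 in limma. The count was 1 without isotype tumour 4, anti-PD-1 tumour 2 or anti-PD-1 tumour 3, 2 without isotype tumour 1, 11 without anti-PD-1 tumour 4 and 12 without isotype tumour 3. Receptors and JAK-STAT components, upstream in the same pathways, were higher in 17 of 17 genes but at a median of 0.28, with Irf9 at 0.41 (SE 0.16) and Stat2 at 0.56 (SE 0.27, and 0.91 without isotype tumour 3), and that median was 0.15 without anti-PD-1 tumour 3, 0.42 without anti-PD-1 tumour 4 and 0.45 without isotype tumour 3.

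Genes of MHC class I presentation were higher in 21 of 21 members with a median of 0.42, and those of class II in 11 of 11 with a median of 0.36. The class I median was 0.65 without isotype tumour 3, and the class II median 0.14 without anti-PD-1 tumour 3 and 0.63 without anti-PD-1 tumour 4. Psmb9, a subunit of the immunoproteasome that cuts antigens, was at 98.3, 96.3, 118.9 and 55.9 CPM with isotype and at 190.1, 96.4, 178 and 119.2 CPM with anti-PD-1, a log2 fold change of 0.66 (SE 0.25). The peptide transporter Tap1 was at 73.4 to 282 CPM with isotype and 228 to 341 CPM with anti-PD-1 (0.67, SE 0.32). B2m, the invariant light chain of class I, differed little, at 1190 to 2653 CPM against 1811 to 2824 CPM (0.23, SE 0.24). Without isotype tumour 4 and without isotype tumour 3, Tap1 gave 0.45 and 1.03 and B2m 0.07 and 0.41. For class II, the invariant chain Cd74 gave 0.43 (SE 0.33) and H2-Aa 0.39 (SE 0.35), which were 0.19 and 0.14 without anti-PD-1 tumour 3. Cd74 was 0.72 without isotype tumour 3 and H2-Aa 0.68 without anti-PD-1 tumour 4. With all 8 tumours 0 of the 11 genes had an unadjusted p below 0.05, but 4 did without anti-PD-1 tumour 4 and 2 without isotype tumour 3. In class II, anti-PD-1 tumours 1 and 3 had the 2 highest summed levels of the 8 and tumour 4 the lowest. H2 genes are polymorphic and near-identical, and their counts carry the same uncertainty as those of the guanylate-binding proteins.

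The macrophage and monocyte list had a median of 0.27 with 18 of 22 genes higher, and Adgre1 (F4/80), a surface marker of mouse macrophages, was at 77.3 to 164 CPM with isotype and 41.2 to 194 CPM with anti-PD-1 (0.29, SE 0.41), a difference of 0.01 without anti-PD-1 tumour 3 and 0.62 without anti-PD-1 tumour 4. Itgam (CD11b) was the 1 gene of that list whose groups stood apart, at 9.77 to 19.3 CPM and 20.5 to 22.7 CPM. Dendritic cell genes had a median of 0.21 with 11 of 14 higher. Without anti-PD-1 tumour 3 the macrophage median was 0.08 and the dendritic cell median 0.05. Without anti-PD-1 tumour 4 they were 0.51 and 0.45, and without isotype tumour 3 they were 0.42 and 0.53. Macrophage activation genes had a median of 0.53 with 13 of 16 higher and 3 at an unadjusted p below 0.05. That median was 0.31 without anti-PD-1 tumour 3, 0.79 without anti-PD-1 tumour 2 and 0.87 without isotype tumour 3, and the count was 0 without isotype tumour 4, 1 without anti-PD-1 tumour 1 and 5 without anti-PD-1 tumour 2 or isotype tumour 3, or 1 in the fits of all 48 or of the 8 tumours alone and 5 in limma. In that list Nos2, the inducible nitric oxide synthase, was at 4.56, 4.78, 9.61 and 2.96 CPM with isotype and at 24.5, 2.87, 15.2 and 16.2 CPM with anti-PD-1. Anti-PD-1 tumour 2 had the lowest value of all 8 and the other 3 exceeded every isotype tumour (1.42, SE 0.55).

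Lists of granulocytes and red cells had medians of similar size to the T cell list, but those rested on 1 tumour. Neutrophil genes summed to 1308 CPM in anti-PD-1 tumour 3, against 169 to 266 CPM in the other anti-PD-1 tumours and 172 to 489 CPM in the isotype tumours. The list median was 0.98 with 15 of 16 higher, and -0.16 without that tumour. Mast cell and eosinophil genes gave 0.78 with 13 of 13 higher, and -0.20 without it. Prg2, the major basic protein of eosinophils, was at 116.2 CPM in anti-PD-1 tumour 3 and at 0.0903 to 0.908 CPM in the other 3. The 8 globin and other erythroid genes had a median of 1.11, which was 0.02 without that tumour and 2.05 without isotype tumour 3. B cell genes gave 0.84 with 13 of 15 higher, 0.49 without anti-PD-1 tumour 3 and 0.32 without anti-PD-1 tumour 1, where Ms4a1 (CD20) was 2.9 CPM against 0.424 to 1.4 CPM in the rest of its group. Complement genes gave 0.51 with 12 of 12 higher, 0.26 without anti-PD-1 tumour 3 and 0.81 without isotype tumour 3. Without anti-PD-1 tumour 3 the T cell median was 0.55 with 0 of 22 genes at an unadjusted p below 0.05, the interferon gamma median 0.73 with 4 of 23, and the T cell-recruiting chemokine median 0.71 with 0 of 15. The part of blood content in these values was not tested.

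Lists of the cell cycle, p53 targets, metabolism, extracellular matrix and endothelium had medians of 0.02 to 0.12, beside -0.0047 for all genes, and pericyte and Schwann cell genes had one of -0.13 with 4 of 11 higher. Cell cycle genes split into 15 higher and 11 lower with a median of 0.05, and Mki67, a marker of dividing cells, was at 146 to 218 CPM and 109.4 to 275 CPM. The p53 target list gave 0.06, with Cdkn1a at 57.6 ± 19.3 CPM against 67.5 ± 17.8 CPM (SD, n = 4 each). Extracellular matrix gave 0.10 with 20 of 25 genes higher, transforming growth factor beta 0.09, hypoxia and glycolysis 0.10 with 16 of 18 higher, cholesterol synthesis 0.02 and endothelium 0.12. With 1 tumour left out these small medians moved: matrix from 0.02 (without anti-PD-1 tumour 4) to 0.33 (without anti-PD-1 tumour 1), hypoxia from -0.04 (without anti-PD-1 tumour 4) to 0.22 (without anti-PD-1 tumour 2), and transforming growth factor beta from -0.05 (without anti-PD-1 tumour 2) to 0.22 (without anti-PD-1 tumour 1). The cell cycle median ran from -0.04 (without anti-PD-1 tumour 4) to 0.14 (without isotype tumour 2), cholesterol synthesis from -0.08 to 0.17 without the same tumours, endothelium from 0.03 (without anti-PD-1 tumour 3) to 0.34 (without isotype tumour 3), p53 targets from 0.02 (without isotype tumour 4) to 0.12 (without anti-PD-1 tumour 1), and pericytes from -0.30 (without isotype tumour 1) to 0.07 (without isotype tumour 3). Immediate early genes had 13 of 14 higher at a median of 0.35, and NF-kappaB targets 14 of 14 higher at 0.23, with Nfkbia, the inhibitor that NF-kappaB induces, at 104.98 to 119.02 CPM in the isotype tumours and 129.89 to 156 CPM in the anti-PD-1 tumours, fully apart (0.32, SE 0.12). Those medians were 0.14 without anti-PD-1 tumour 4 and 0.12 without anti-PD-1 tumour 3. Skeletal muscle genes were lower in 16 of 18 members at a median of -0.28, and that median ran from -0.89 to 0.65 as tumours were left out in turn. The plot of list members shows the T cell, interferon and T cell-recruiting chemokine lists lying almost wholly to the right of 0. The MHC, complement, erythroid, neutrophil, and mast cell and eosinophil lists do so too, as do the NF-kappaB targets with smaller values. The cell cycle and cholesterol synthesis lists lie on both sides of 0.

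**Figure D2:**
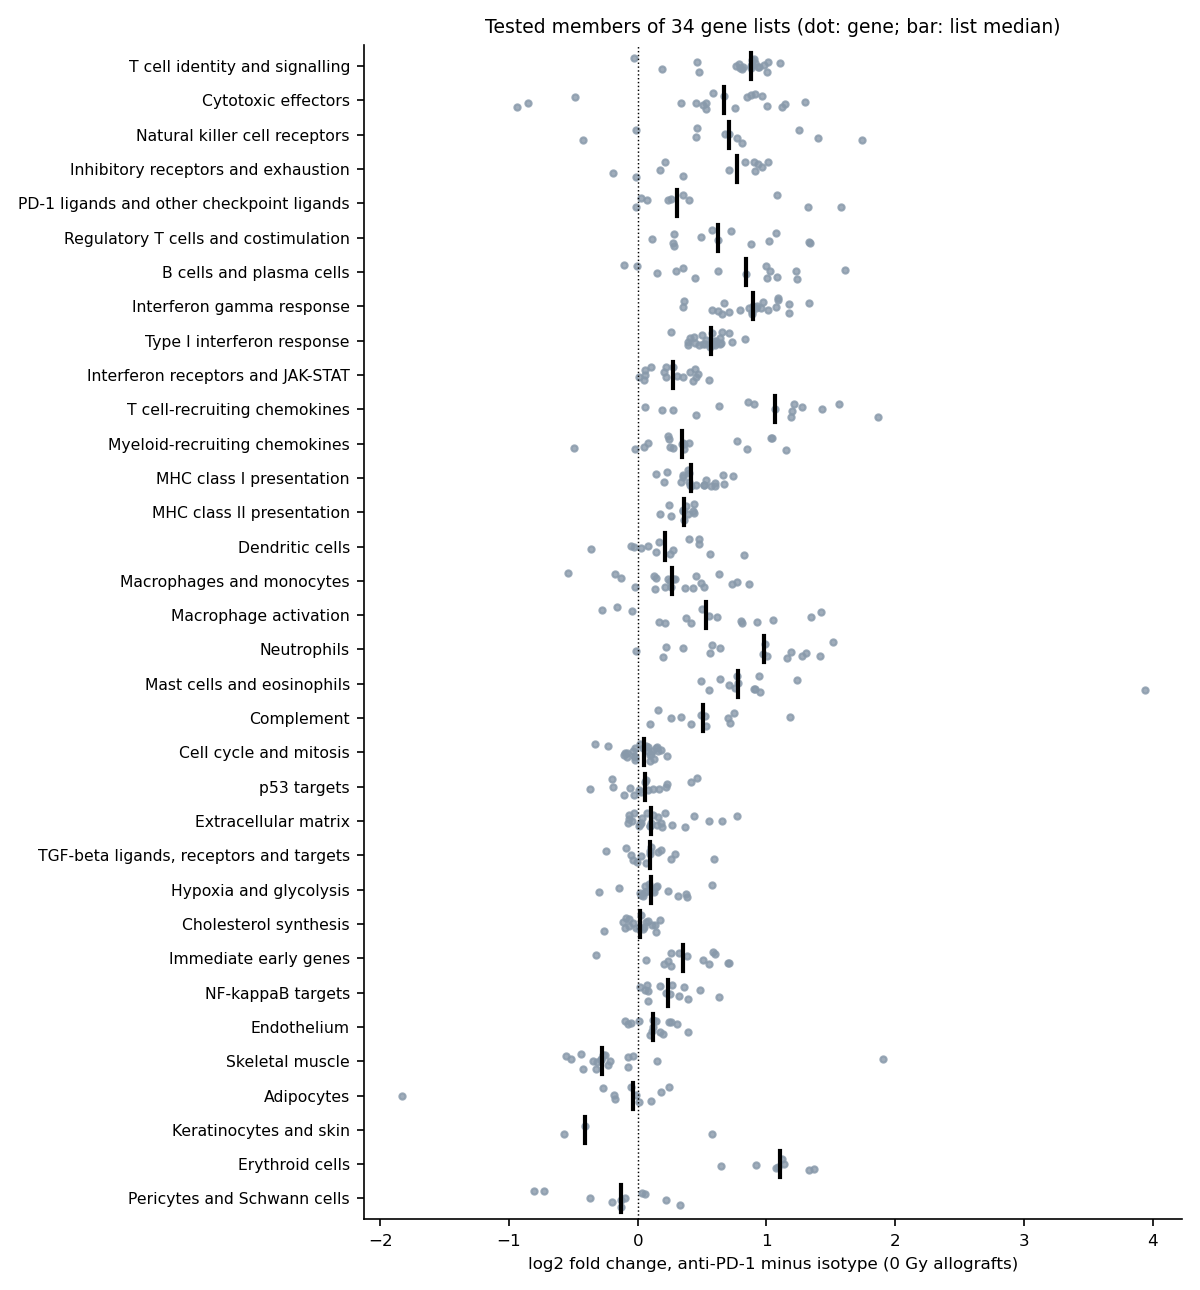
Log2 fold change (horizontal axis, anti-PD-1 minus isotype, unirradiated allografts) of every tested member of 34 gene lists; a dot is 1 gene and the bar the list median. All 23 interferon gamma genes, all 24 type I interferon genes and all 21 MHC class I genes lie above 0, the cell cycle list is centred on 0.05, and Prg2 is the single dot at 3.94.

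Over all genes of at least 5 CPM, those with the smallest p on the higher side included, outside the lists, Ifi47, an immunity-related GTPase (0.92, SE 0.28), Ubd, a ubiquitin-like modifier (1.62, SE 0.53), and Ptpn22, a phosphatase that dampens T cell receptor signalling (0.60, SE 0.20). Pnp, a purine salvage enzyme, was at 18.2, 19, 19 and 16 CPM with isotype and at 27.7, 21.9, 34.5 and 24 CPM with anti-PD-1. Its groups stood apart, and so did those of Gimap3, a GTPase of lymphocytes (10.5 to 14.1 CPM against 14.6 to 32.7 CPM), of Ube2l6, the conjugating enzyme for the interferon-induced modifier Isg15 (43.8 to 65.8 CPM against 67.5 to 107.1 CPM), and of Egr2, induced by T cell receptor signals (3.46 to 5.24 CPM against 5.37 to 8.95 CPM). On the lower side the differences were smaller. Ptar1 was at 5.63 to 6.04 CPM with isotype and 4.51 to 4.88 CPM with anti-PD-1 (-0.33, SE 0.14), and Lcor, a transcriptional corepressor, at 6.09 to 6.99 CPM against 4.87 to 6.08 CPM (-0.27, SE 0.16), both with groups apart. The largest value on this side among the genes selected was -1.19 (SE 0.43) for Rn7sk, a small nuclear RNA that poly(A) selection should largely remove. It was at 62.5 and 104.2 CPM in isotype tumours 2 and 4 and at 15.7 to 28.8 CPM in the other 6, and its value was -0.60 without isotype tumour 4.

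No list of the T cell and interferon groups changed the sign of its median when any of the 8 tumours was left out, and neither did the chemokine, MHC, checkpoint or natural killer lists. The sizes and the counts moved with single tumours. Without isotype tumour 3, 6.34% of the genes tested had an unadjusted p below 0.05, against 0.673% without isotype tumour 4 and 0.704% without anti-PD-1 tumour 3, and the number passing adjustment was 0 each time.

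**Figure D3:**
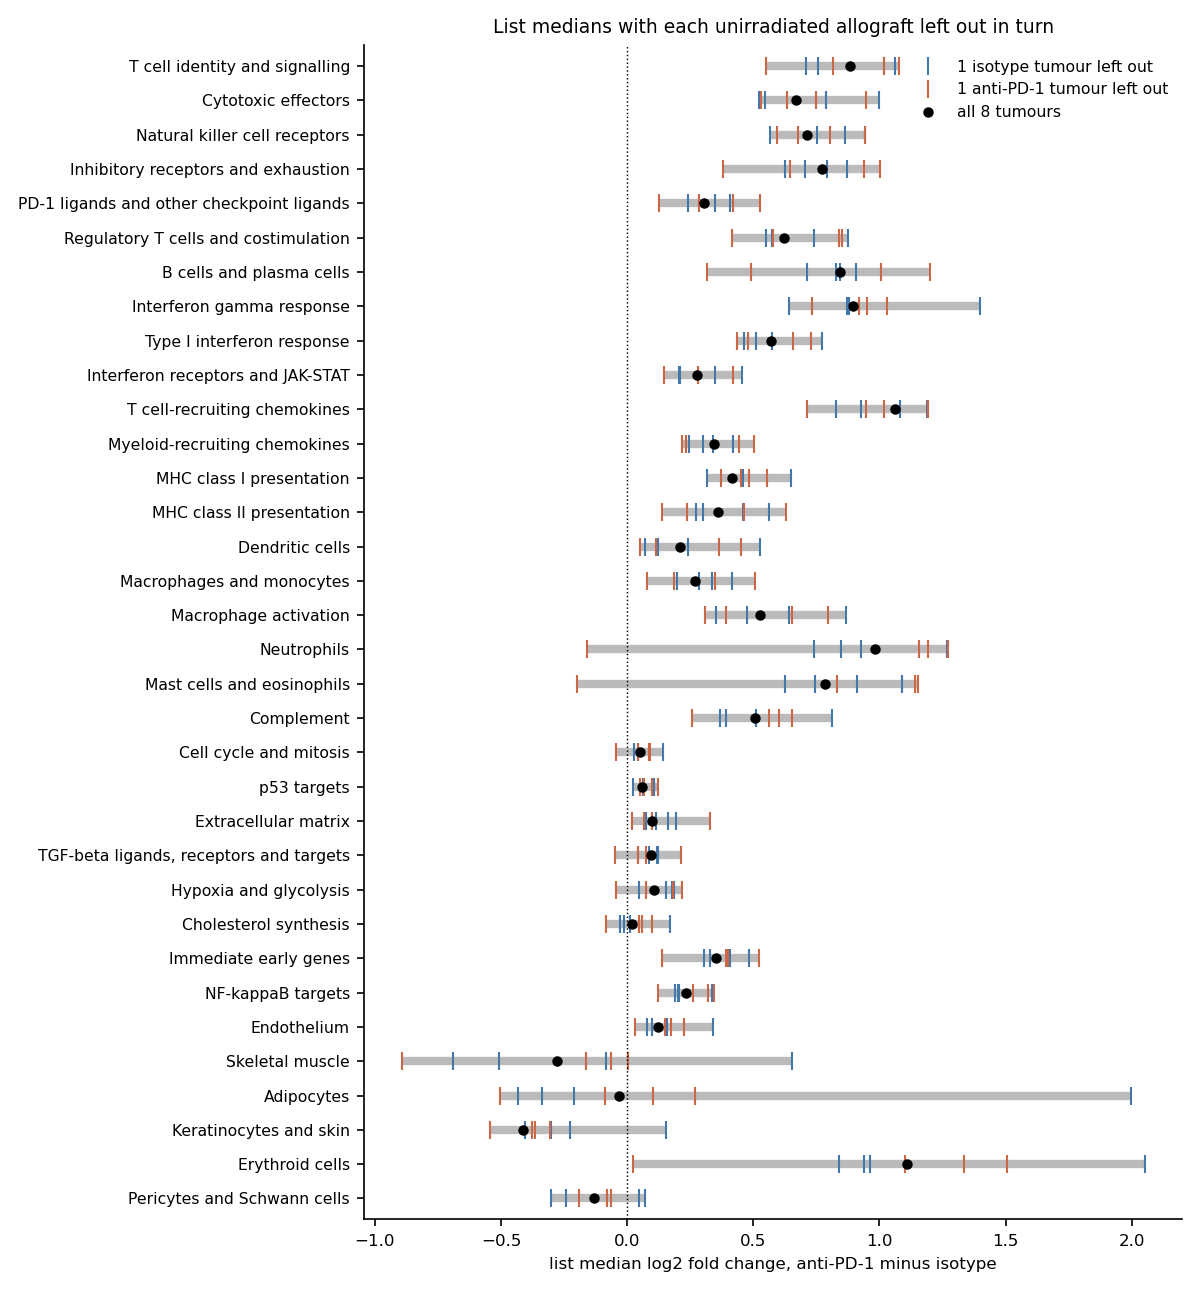
Median log2 fold change (horizontal axis) of each of the 34 lists with all 8 tumours (black point) and with 1 tumour left out (ticks, blue for an isotype and orange for an anti-PD-1 tumour); the grey bar spans the 8 values. The T cell list spans 0.55 to 1.08 and the interferon gamma list 0.64 to 1.40, whereas the bars of the neutrophil, mast cell, muscle, adipocyte, keratinocyte, pericyte, cell cycle, cholesterol, hypoxia and transforming growth factor beta lists cross 0.

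Levels within a tumour were next set against Ptprc (CD45), which all leukocytes carry, to ask whether T cell genes differed relative to leukocyte RNA as a whole. Ptprc was at 106.2, 149, 223 and 96.3 CPM with isotype and at 210.3, 150.2, 291 and 106.7 CPM with anti-PD-1, a log2 fold change of 0.40 (SE 0.30) that was 0.12 without anti-PD-1 tumour 3 and 0.70 without isotype tumour 3. On the log2 scale the ratio to Ptprc was higher with anti-PD-1 by 0.59 for Cd3e (exact 2-sided permutation p = 0.0857 over 70 regroupings). The difference was 0.47 for Cd8a (exact p = 0.114) and 0.20 for Cd4 (exact p = 0.629). It was 0.92 for Foxp3 (exact p = 0.0571), 0.80 for Gzmb (exact p = 0.143) and, as the largest, 1.10 for Ifng (exact p = 0.114). In the Foxp3 ratio the groups overlapped, with isotype tumour 4 at 0.01739 above anti-PD-1 tumour 3 at 0.01535. Among genes of other leukocytes, the difference was -0.22 for Adgre1 (exact p = 0.543) and 0.47 for Ms4a1 (exact p = 0.514). With 4 against 4 tumours the smallest p possible is 0.0286. A ratio at that p could pass 0.05 after Benjamini-Hochberg adjustment over the 11 ratios computed only if most of the others were as low. The smallest adjusted p of 0.314 therefore does not show that the ratios were alike. The ratio of Foxp3 to Cd8a was 0.0656 to 0.164 with isotype and 0.0788 to 0.218 with anti-PD-1. These ratios were chosen after the values were seen.

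Across the 8 tumours of both antibodies, Cd274 followed Cd8a with a Pearson r of 0.968 (exact permutation p = 9.92e-05, adjusted 0.00191 over 21 pairs) and a Spearman rho of 0.952 (exact permutation p = 0.00114). Without the 2 tumours farthest from the median of Cd8a, isotype tumour 4 and anti-PD-1 tumour 3, r was 0.98. Cxcl9 followed Ifng with r = 0.963 (exact permutation p = 0.000223, adjusted 0.00191) and rho = 0.952 (exact permutation p = 0.00114), and with r = 0.932 without the same 2 tumours. Cd8a and Ptprc gave r = 0.824 (exact permutation p = 0.0093, adjusted 0.0178) and rho = 0.786 (exact permutation p = 0.0279), and r = 0.55 without those 2, so this relation rests on them. Both Foxp3 pairs set out here had a lower r: Foxp3 and Ifng gave r = 0.514 (exact permutation p = 0.183, adjusted 0.183) and rho = 0.619 (exact permutation p = 0.115), with r = 0.0773 without anti-PD-1 tumours 1 and 3. Foxp3 and Cd274 gave r = 0.564 (exact permutation p = 0.148, adjusted 0.155) and rho = 0.5 (exact permutation p = 0.216), with r = -0.0269 without the same 2. The antibody groups overlap for both genes of the pairs without Foxp3, but Foxp3 levels stand fully apart between the groups. Permutations ran over all 8 tumours without regard to antibody, so each r and p also carries the difference between the groups. No correlation is given within a group of 4 tumours. The genes paired here were chosen after their values were seen. The plot of gene pairs shows that anti-PD-1 tumour 2 departs in the Foxp3 panel, with a Foxp3 level of its own group and an Ifng level of the isotype group.

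**Figure D4:**
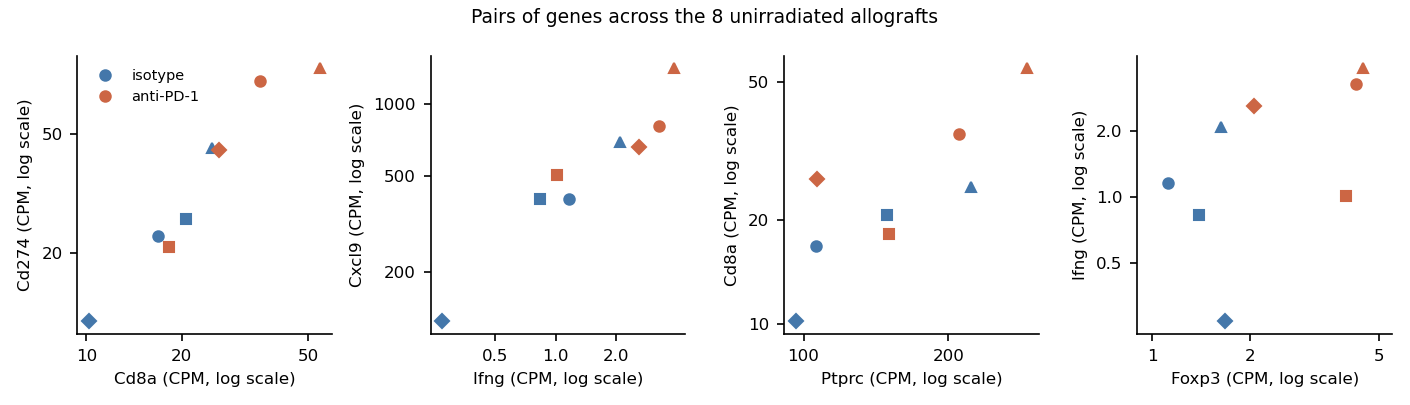
Pairs of genes across the 8 unirradiated allografts, in CPM on log axes, isotype in blue and anti-PD-1 in orange, with circle, square, triangle and diamond for tumours 1 to 4. Cd274 against Cd8a and Cxcl9 against Ifng form a single band over both antibodies (r = 0.968 and 0.963), and in the last panel anti-PD-1 tumour 2 (square) pairs a Foxp3 level of 3.96 CPM with an Ifng level of 1.01 CPM.

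The same antibody comparison was available in 2 sets of tumours that share no sample with this one, the 20 Gy allografts (4 against 4) and the unirradiated primary sarcomas (8 against 8). Neither gave a called gene in edgeR (0 of 17746 and 0 of 17770, with 682 genes or 3.84% and 412 genes or 2.32% at an unadjusted p below 0.05). T cell identity genes had medians of 0.76 and 1.01 there and regulatory T cell genes 0.56 and 0.88, beside 0.88 and 0.62 in the unirradiated allografts. The blood cell lists were also higher there: neutrophil genes had medians of 1.12 (13 of 16 higher) and 0.72 (11 of 15), erythroid genes 0.92 (8 of 8) and 0.65 (6 of 7), and mast cell and eosinophil genes 1.09 (13 of 13) and 0.11 (9 of 13). Foxp3 had log2 fold changes of 1.01 (SE 0.41) at 20 Gy and 1.44 (SE 0.64) in the primary tumours. The interferon gamma list had a median of 0.29 at 20 Gy with 22 of 23 genes higher, and 0.74 in the primary tumours with 23 of 23 higher. The type I interferon list, higher in all 24 genes here, was higher in 8 of 24 at 20 Gy (median -0.20) and in 2 of 24 in the primary tumours (median -0.13). Cytotoxic effectors had medians of 0.60 at 20 Gy and -0.14 in the primary tumours, where Gzmb was at -0.63 (SE 0.59). Tests of the differences themselves called 0 of 17746 genes for dose with antibody (269 genes, 1.52%, at an unadjusted p below 0.05, and 0 called in DESeq2) and 0 of 19327 for tumour kind with antibody in edgeR (146 genes, 0.755%). DESeq2 called 1 gene in the latter, Skint3, at an extreme log2 difference of -20.97 (primary minus allograft), and edgeR did not call it. So no difference between the settings was shown for any interferon or T cell gene. Across all genes, the log2 fold changes correlated with those at 20 Gy at r = 0.116 and rho = -0.0058 (17746 genes) and with those of the primary tumours at r = 0.176 and rho = 0.161 (17167 genes), a description over genes that are not independent replicates.

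**Figure D5:**
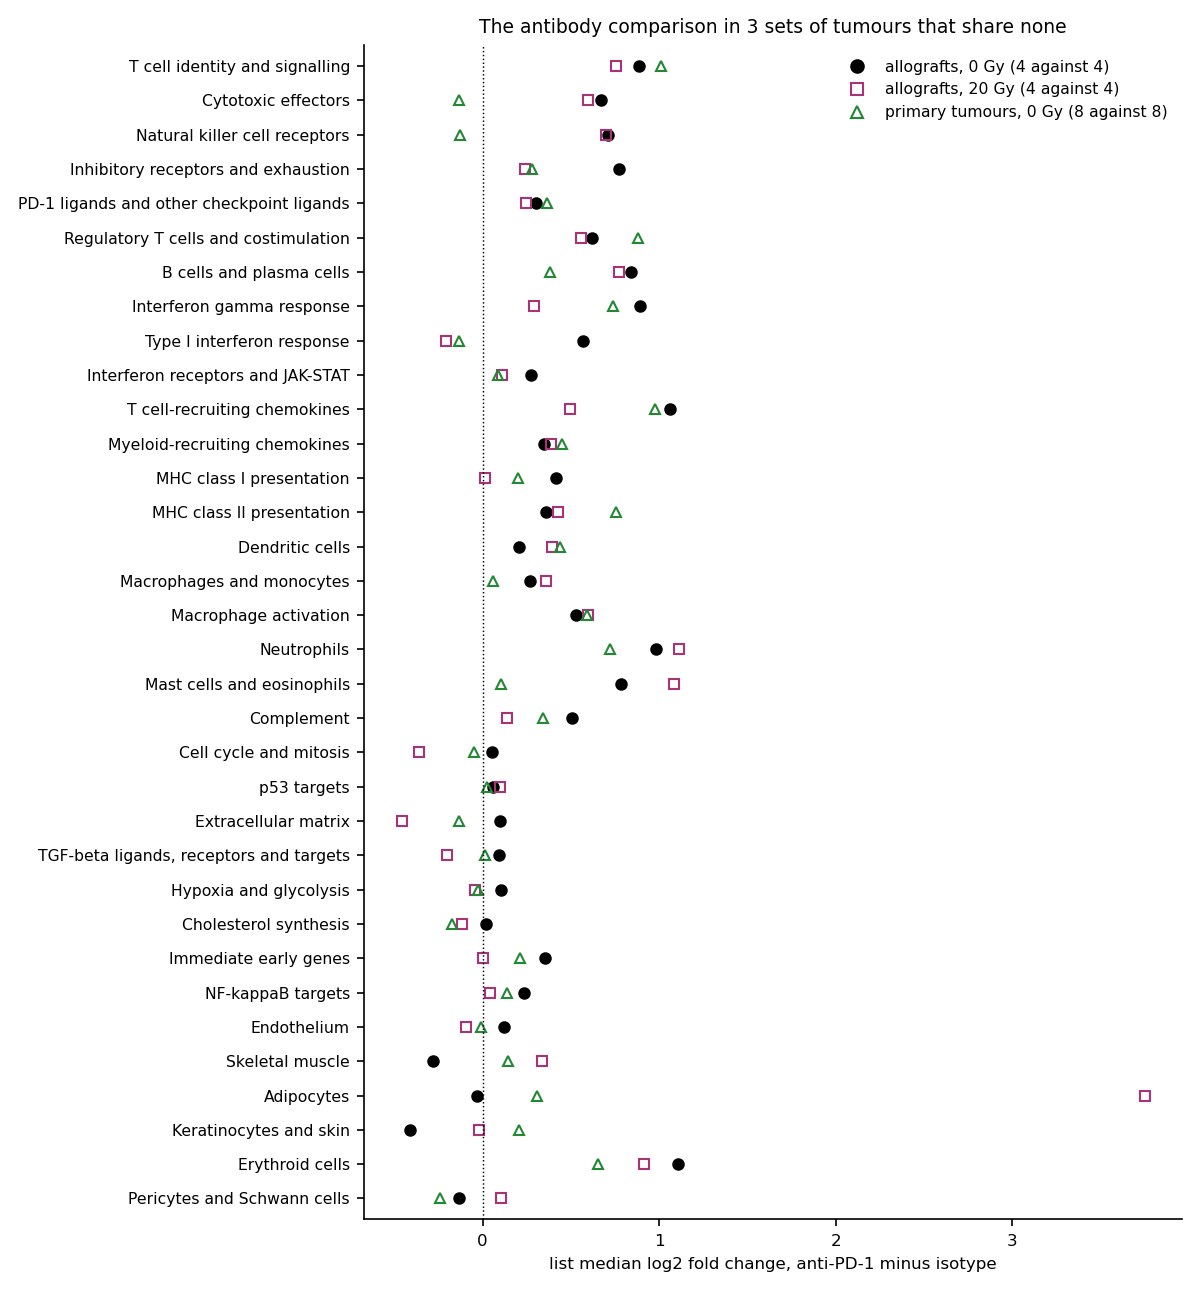
Median log2 fold change (horizontal axis, anti-PD-1 minus isotype) of 34 gene lists in the unirradiated allografts (black circles), the 20 Gy allografts (open squares) and the unirradiated primary tumours (open triangles), which share no tumours. T cell medians lie at 0.88, 0.76 and 1.01, type I interferon medians at 0.57, -0.20 and -0.13, and the adipocyte list at 20 Gy is the point at 3.75.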

How the data were processed

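Bulk mRNA was sequenced from 48 mouse sarcomas, of which the 8 unirradiated allografts are described here. The authors deposited 1 table of raw read counts per gene, whole numbers that are not normalised, and per the labels' protocols RNA above a stated integrity number was made into strand-marked libraries from poly(A)-selected RNA. Trimmomatic 0.36, STAR (given as version 5.5.4b), HTSeq and the mm10 build are named in the submitters' processing notes. Neither the annotation nor the strand setting of the counting is given in the sources used here, so the counts of overlapping, antisense and near-identical genes are uncertain. Identifiers were named from GENCODE M21 (36796 of 36854 genes), with 0 entries naming no gene.

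Genes were filtered with filterByExpr, library sizes were scaled by edgeR's TMM method, and genes were tested with edgeR's quasi-likelihood F test in 1 fit of the 16 allografts in 4 groups, which share an estimate of the spread (12 residual degrees of freedom, biological coefficient of variation 0.375). p-values were adjusted by Benjamini-Hochberg over all 17746 genes, and a gene is called below 0.05. An SE is the size of the log2 fold change divided by the root of F. CPM values are TMM-scaled. Replicates were numbered in accession order, which pairs nothing. Titles carry an identifier, but the labels do not state that each tumour came from a separate mouse, so p-values measure the spread between these tumours. Software was R 4.3.3, edgeR 4.0.16, limma 3.58.1, DESeq2 1.42.0, and, for permutations and figures, scipy 1.17.1, matplotlib 3.10.9, pandas 2.3.3 and numpy 2.4.6 under Python 3.11.15. The count test was tested on simulated data first.

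The members and the 34 gene lists were chosen with earlier results of these data known. The text names a panel of 22 genes, up to 3 genes per list with the smallest p, the 10 higher and 10 lower genes with the smallest p among those of at least 5 CPM, and 5 per direction whose groups stand apart. Some of the genes so selected are not reported here. Alternatives were DESeq2, limma voom with sample quality weights, DESeq2 size factors, no filter on low counts, the 8 tumours only, all 48 tumours, a covariate for the first digit of that identifier, each tumour left out, and, added after seeing the data, a covariate for Xist above 10 CPM.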

Additional observations from a re-analysis of the deposited data

Results flagged for a closer look

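Of 260 groups of 4 tumours examined (92 genes and 34 summed lists among them, in each antibody group), 13 held a tumour far from the other 3 by Dixon's 95% criterion. That is 5%, and chance gives about 1 in 20. Anti-PD-1 tumour 3 accounts for 3 of them: S100a8, a neutrophil calprotectin subunit, at 218 CPM, Prg2 at 116.2 CPM, and the summed neutrophil genes at 1308 CPM. In isotype tumour 3, Prg2 was at 5.45 CPM. In isotype tumour 4, Cyren was at 13.5 CPM, the summed dendritic cell genes were low at 574 CPM and mitochondrial genes took 2.03% of counts. In isotype tumour 2, Ctla4 was at 6.96 CPM and Xist at 86.9 CPM, and in anti-PD-1 tumour 2 Xist was at 75.8 CPM. Anti-PD-1 tumour 1 had the lowest extracellular matrix sum at 15952 CPM. Anti-PD-1 tumour 4 had the highest cell cycle sum at 2842 CPM and the highest cholesterol synthesis sum at 1078 CPM.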

How the results depend on the processing

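The number of called genes was 0 in edgeR, DESeq2 and limma and under each alternative and each tumour left out. At an unadjusted p below 0.05 the main share of 1.68% became 2.34% with DESeq2, 7.45% with limma and sample quality weights, 1.96% with DESeq2 size factors, 2.32% without the filter, 1.1% with the 8 tumours alone, 0.683% with all 48 tumours, 2.06% with the identifier covariate, 1.36% with the Xist covariate, and 0.673 to 6.34% with 1 tumour left out. For tumour kind with antibody, DESeq2 called 1 gene. With all 48 tumours in the fit, 0 of 22 T cell genes and 8 of 23 interferon gamma genes had an unadjusted p below 0.05, against 11 and 14. Of 1472 alternative values for 92 named genes, 1468 kept their direction and 4 reversed, each with a tumour left out: Mki67 to -0.094, Prg2 to -2.24, S100a8 to -1.02 and Trp53 to -0.076. Over all tumours left out these ran from -0.09 to 0.32 for Mki67, -2.24 to 5.33 for Prg2, -1.02 to 2.21 for S100a8 and -0.08 to 0.27 for Trp53. The keratinocyte median of -0.41, over 3 genes, was 0.30 with limma, 0.090 without the filter and -0.55 to 0.15 with 1 tumour left out. With limma the muscle median was 1.47 and the adipocyte median 1.62. The causes were not tested. No paired analysis was possible because the labels give no replicate numbers and accession order pairs nothing. The interval of single-gene differences is set by the spread between 4 tumours a group, and levels under 1 CPM, as for Ccr8, rest on few counts.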
